A study of Mus musculus with 8 samples.

Results

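The creatine kinase and adenylate energy buffering genes of mouse quadriceps are described here across 4 Folfiri-treated and 4 Vehicle-treated muscles. They are the 9 genes Ckm, Ckmt2, Ckb, Slc6a8, Gamt, Ak1, Ampd1, Ampd3 and Adssl1, taken by gene symbol from the 12896 genes of the deposited table. All 9 had the reads needed to be tested. The study asked how chemotherapy acts on the skeletal muscle of mice without a tumor. Folfiri is a combination of the antimetabolite 5-FU, Leucovorin and the topoisomerase inhibitor CPT-11. The Folfiri mice were CD2F1 males, 8 weeks old at the start, that received 30 mg/kg 5-FU, 90 mg/kg Leucovorin and 24 mg/kg CPT-11 by intraperitoneal injection, 2 times a week for up to 5 weeks. The Vehicle mice were CD2F1 males of that age given the vehicle alone. Each library is the polyadenylated RNA of quadriceps tissue of 1 animal, so that muscle fibers, vessels, nerve, fat and blood were read together.

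Contracting muscle spends ATP faster than mitochondria and glycolysis can replace it, and these genes encode the proteins that bridge the gap. Creatine kinases move phosphate between phosphocreatine and ATP, after creatine has been made from guanidinoacetate and carried into the fiber. Adenylate kinase recovers ATP from ADP and leaves AMP, which AMP deaminase turns into IMP and adenylosuccinate synthase leads back towards AMP, together with adenylosuccinate lyase, as the purine nucleotide cycle.

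Several of the 9 genes have close relatives, and the sequences show how far a read could tell them apart. Over 1146 aligned coding bases Ckm and Ckb were 75.8% identical, and their longest shared run was 20 bases of a 75-base read. Ckm and Ckmt2 shared 67.2% of aligned coding bases and at most 17 in a row, and Ampd1 and Ampd3 shared 65.2% and at most 17 in a row. Ampd1 and Ampd2, a further AMP deaminase outside the 9 genes, shared 62.3% but a longer run, of 34 bases. A stretch of 1 read length of coding sequence (GENCODE transcripts on NCBIM37, the build called mm9) is printed below for the creatine kinases and for Ampd1 and Ampd3. Each was placed around a longest exact shared run, which need not be the most similar stretch of that length. Each stretch lies within a single coding exon. For the creatine kinases it was taken around the longest run shared by Ckm and Ckb, with the bases aligned to it in Ckmt2, at chr7:19999547-19999621 on the + strand in Ckm, chr12:112910035-112910109 on the - strand in Ckb and chr13:92002858-92002932 on the - strand in Ckmt2. Capitals mark bases that differ from Ckm, 18 of 75 in Ckb and 28 of 75 in Ckmt2.
Ckm: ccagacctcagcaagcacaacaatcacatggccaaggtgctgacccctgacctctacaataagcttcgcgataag
Ckb: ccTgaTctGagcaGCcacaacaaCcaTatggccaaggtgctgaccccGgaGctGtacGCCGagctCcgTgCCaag
Ckmt2: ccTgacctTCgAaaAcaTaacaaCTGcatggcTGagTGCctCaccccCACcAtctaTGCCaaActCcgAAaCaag

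For the AMP deaminases the stretch was taken around the longest run shared by Ampd1 and Ampd3 and lies at chr3:102895074-102895148 on the + strand in Ampd1 and at chr7:117944164-117944238 on the + strand in Ampd3. Capitals mark the 15 of 75 bases that differ from Ampd1.
Ampd1: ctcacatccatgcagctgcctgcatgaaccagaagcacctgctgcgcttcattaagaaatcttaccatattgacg
Ampd3: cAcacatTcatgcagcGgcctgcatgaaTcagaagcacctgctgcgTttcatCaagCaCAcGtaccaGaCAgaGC

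The libraries held 8505985 to 21056818 reads over all genes, and the 9 genes took 2.07% to 2.92% of them in Folfiri and 2.19% to 2.70% in Vehicle muscle. Levels are given as CPM, read counts brought to a common library size after scaling by the trimmed mean of M-values (TMM). All 12883 genes with enough reads entered the quasi-likelihood test of edgeR (QL test below), and a gene was called where its p, adjusted by Benjamini-Hochberg over those genes (QL-adjusted p), was under 0.05. Errors of log2 fold changes are standard errors (SE), and 95% intervals come from the same fit. The 11 fast fiber genes summed to 121147 to 230126 CPM in Folfiri and 130135 to 245787 CPM in Vehicle muscle. A pair of libraries stood apart in transcripts of other cells. Folfiri 1 had the highest sum of hepatocyte markers (220 CPM over 7 of 8 markers; the other Folfiri libraries held 7.497 to 71.1, and Vehicle 0.723 to 9.44, with 3 or 4 of the 7 markers at 0 in Vehicle 1, 3 and 4) and the lowest sum of slow fiber genes. Vehicle 2 had the highest sum of adipocyte markers (1937 CPM over 10 of 10 markers, against 187 to 531 in Folfiri and 215 to 737 in the other Vehicle libraries) and the highest sum of slow fiber genes. Values of the 9 genes that moved most without Folfiri 1 or Vehicle 2 are therefore given with and without them. In RNA of muscle tissue, fewer cells of a type and less RNA per cell cannot be told apart.

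None of the 9 genes was called between Folfiri and Vehicle muscle, where 0.00776% of all genes tested were called, that is 1 gene, Exoc3l4, named after its values were seen. At an unadjusted p under 0.05 in the QL test, 1 of the 9 (Gamt) was higher in Folfiri, where 5.48% of all genes were, and 0 were lower, where 4.02% of all genes were (9.5% in either direction). In 0 of the 9 were the 4 Folfiri libraries entirely above or below the 4 Vehicle libraries, against 5.53% of all genes (2.87% above and 2.66% below). Other tests called more genes, 86 in edgeR's exact test, 101 in its likelihood ratio test and 77 in DESeq2, and 0 of the 9 were among them. The log2 fold change was positive for 3 of the 9 genes, where 51.4% of all genes were positive, and negative for 6, with a median of -0.09 beside 0.01 over all genes. That split was not stable, since 7 of the 9 were positive without Folfiri 1 (median 0.070) and 7 with libraries scaled by their read totals alone (median 0.040, where that of all genes was 0.14).

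**Figure D1:**
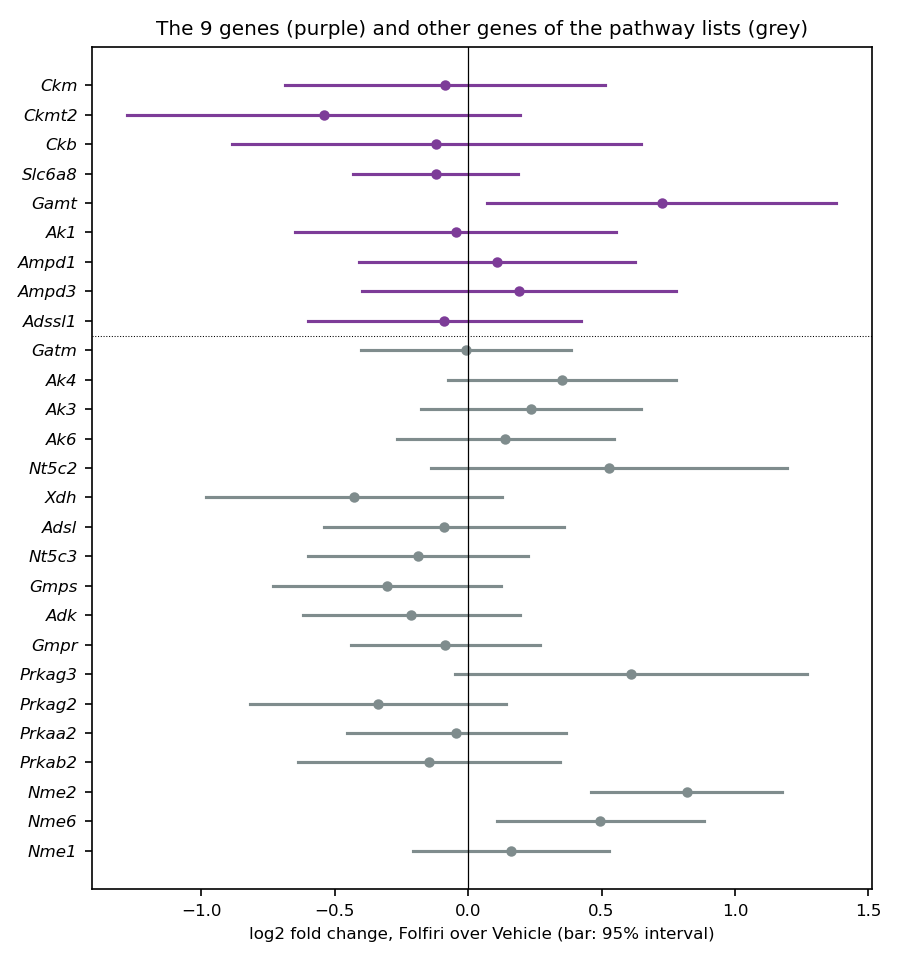
Log2 fold changes of Folfiri over Vehicle (horizontal axis) with their 95% intervals for the 9 genes (purple) and the other named genes of the pathway lists (grey). The interval of Gamt (0.07 to 1.38) lies above 0 before adjustment, those of the other 8 purple genes span 0, and among the grey genes those of Nme2 and Nme6 lie above 0.

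Ckm, the cytosolic creatine kinase subunit of muscle (chr7:19996443-20006932), stood at 14639, 17781, 24335 and 20034 CPM in Folfiri 1 to 4, against 24152, 15530, 23617 and 18254 CPM in Vehicle 1 to 4. The groups overlapped almost entirely, with both ends of the range set by Folfiri libraries. It was the gene with the 6th highest mean CPM of all, and took 1.71% to 2.40% of all reads in Folfiri and 1.64% to 2.17% in Vehicle muscle. Means were 19197 ± 4077 CPM in Folfiri and 20388 ± 4193 CPM in Vehicle muscle (SD, n = 4 each). Between groups the log2 fold change came to -0.09 ± 0.28 (SE) with a 95% interval of -0.69 to 0.51 (QL-adjusted p = 0.935). In linear terms the interval reaches from 0.622 to 1.43 times the Vehicle level, so these data leave room for a change of the most abundant creatine kinase within that span.

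Ckmt2, the creatine kinase of sarcomeric mitochondria (chr13:91992992-92016490), had the most negative log2 fold change of the 9 genes. Its levels were 455, 1630, 1411 and 1347 CPM in Folfiri 1 to 4, against 1638, 2244, 1290 and 1876 CPM in Vehicle 1 to 4. Folfiri 1 was far below every other library and Vehicle 2 was the highest, while the remaining 6 libraries of both groups interleaved. Means were 1211 ± 518 CPM in Folfiri and 1762 ± 401 CPM in Vehicle muscle (SD, n = 4 each), and the highest of the 8 libraries held 4.93 times the lowest, the widest span among the 9 genes. On the log2 scale Folfiri minus Vehicle was -0.54 ± 0.34 (SE), within a 95% interval of -1.28 to 0.19 (QL-adjusted p = 0.618). It was -0.27 without Folfiri 1, -0.40 without Vehicle 2 and -0.13 without both.

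Ckb, the brain-type cytosolic subunit (chr12:112907566-112910549), was close to the lower end of what these libraries could measure. It had 20, 41, 36 and 30 reads in Folfiri 1 to 4, against 17, 27, 20 and 34 reads in Vehicle 1 to 4. In CPM these are 1.44, 1.78, 2.71 and 2.01 in Folfiri and 1.16, 2.18, 2.62 and 2.73 in Vehicle muscle. The lowest library and the highest were both of Vehicle muscle, with all Folfiri libraries between them. The fitted log2 fold change, -0.12 ± 0.35 (SE, QL-adjusted p = 0.929), carried the widest 95% interval of the 9 genes, -0.89 to 0.65.

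Within a library the 3 creatine kinases can be set against each other without any scaling. Ckmt2 took 3.02%, 8.39%, 5.48% and 6.30% of creatine kinase reads in Folfiri 1 to 4, against 6.35%, 12.6%, 5.18% and 9.32% in Vehicle 1 to 4. The lowest share was that of Folfiri 1 (exact Clopper-Pearson 95% interval 2.94% to 3.09%) and the highest that of Vehicle 2 (12.5% to 12.8%), and the shares of the other 6 libraries lay between 5.18% and 9.32% in both groups. These intervals cover counting error only, and the spread between animals of 1 group was far wider. Ckb took 0.00917% to 0.0105% of creatine kinase reads in Folfiri and 0.0045% to 0.0136% in Vehicle muscle. The exact interval of the lowest share, in Vehicle 1, was 0.00262% to 0.00721%, and that of the highest, in Vehicle 4, was 0.0094% to 0.019%. Ckm held the rest, 91.6% to 97.0% in Folfiri and 87.4% to 94.8% in Vehicle muscle.

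Slow, oxidative fibers are rich in mitochondria, and the slow fiber transcripts varied more between these muscles than any of the 9 genes. The sum of 8 slow fiber genes, such as Myh7, Tnnt1 and Tnni1, was 47.3, 727, 339 and 295 CPM in Folfiri 1 to 4, against 144, 1768, 470 and 230 CPM in Vehicle 1 to 4. All 8 had a negative log2 fold change and 0 were called, with a median of -0.93, but this direction rested on Vehicle 2. Without that library 7 of the 8 were positive (median 0.39), and without Folfiri 1 and Vehicle 2 all 8 were (median 0.76). The library with the least Ckmt2, Folfiri 1, also held the least slow fiber RNA, and the one with the most, Vehicle 2, held the most. Between them the order broke down, since Vehicle 1 combined the second lowest slow fiber sum with the third highest Ckmt2 level. What part the fiber makeup of the samples had in the Ckmt2 values was not tested.

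**Figure D2:**
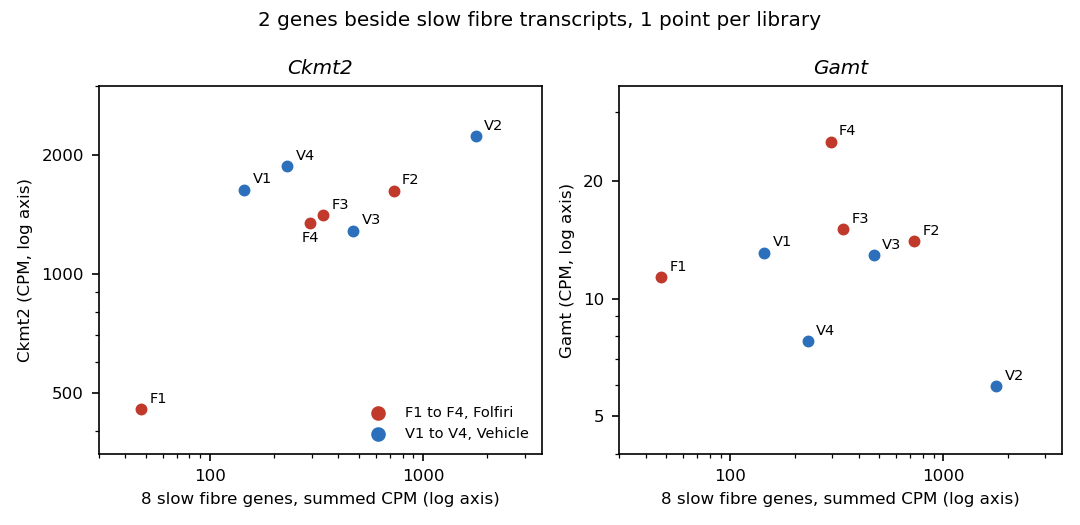
Ckmt2 (left) and Gamt (right) in CPM against the summed CPM of 8 slow fiber genes, both on log axes, with 1 point per library (F, Folfiri; V, Vehicle). F1 (47.3 CPM of slow fiber genes) has the lowest Ckmt2 at 455 CPM and V2 (1768 CPM) the highest at 2244 CPM, while the highest Gamt, 25.2 CPM, is in F4 with 295 CPM of slow fiber genes.

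Creatine reaches the fiber through Slc6a8, the creatine transporter of the cell membrane (chrX:70918472-70927839), and this gene was the most even of the 9. It stood at 143.9, 135.4, 149.0 and 123.9 CPM in Folfiri 1 to 4, against 147.7, 158.5, 142.8 and 152.1 CPM in Vehicle 1 to 4. Folfiri 4 was the lowest and Vehicle 2 the highest, and the groups overlapped between 142.8 and 149.0 CPM. The coefficient of variation was 7.94% in Folfiri and 4.42% in Vehicle muscle, below that of every other gene of the 9 in its group. Its log2 fold change of -0.12 ± 0.14 (SE, QL-adjusted p = 0.801) had a 95% interval of -0.43 to 0.19, which in linear terms runs from 0.742 to 1.14 times the Vehicle level.

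Gamt, which methylates guanidinoacetate to creatine (chr10:79720896-79723713), was the only gene of the 9 to pass an unadjusted p under 0.05. It had 11.3, 14.02, 15.1 and 25.2 CPM in Folfiri 1 to 4, from 158, 323, 200 and 377 reads. In Vehicle 1 to 4 it had 13.1, 5.97, 12.9 and 7.80 CPM, from 192, 74, 99 and 97 reads. The 3 highest libraries were Folfiri and the 2 lowest Vehicle, but Folfiri 1 lay below Vehicle 1 and Vehicle 3, so the groups overlapped. Means were 16.4 ± 6.08 CPM in Folfiri and 9.96 ± 3.63 CPM in Vehicle muscle (SD, n = 4 each). In the QL test the log2 fold change was 0.73 ± 0.30 (SE), with an unadjusted p = 0.0325 and a QL-adjusted p = 0.498, and the adjusted p ran from 0.321 to 0.683 over the alternatives tried.

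The Gamt difference leaned on single animals, in both directions. Without Folfiri 4, which held the highest level, the log2 fold change was 0.44 (unadjusted p = 0.142 in edgeR's QL test). It was 0.54 without Vehicle 2 (unadjusted p = 0.0877) and 0.62 without Vehicle 4 (unadjusted p = 0.0837), the libraries with the lowest levels, in the QL test of edgeR, and 0.69 without Folfiri 1 and Vehicle 2 together (unadjusted p = 0.0318). The log2 fold change rose to 0.87 without Folfiri 1 (unadjusted p = 0.0169) and to 0.90 without Vehicle 1 (unadjusted p = 0.0189), in the same test. Liver is a tissue with much creatine synthesis. The summed hepatocyte markers ran from 7.497 CPM (Folfiri 4) to 220 CPM (Folfiri 1) in Folfiri muscle. In Vehicle muscle they ran from 0.723 to 9.44 CPM (Vehicle 2), so that the sums overlapped. All 7 markers were higher in Folfiri at an unadjusted p under 0.05 in the QL test, where 5.48% of all genes were. Of these markers 0 were called. Their median log2 fold change was 5.00, and 5.90 without Folfiri 1 and Vehicle 2, where all 7 again passed. All 7 of these markers were detected in every Folfiri library. Within Folfiri their sum fell at each step from Folfiri 1 to Folfiri 4, while Gamt rose at each step, from 11.3 to 25.2 CPM. In Vehicle muscle the highest marker sum was in Vehicle 2, which had the lowest Gamt level (5.97 CPM). Among Vehicle 1, 3 and 4 the marker sum and Gamt had the same order. The part of hepatocyte RNA in the Gamt values was not tested. Gatm, which makes the guanidinoacetate that Gamt uses, averaged 8.69 ± 0.869 CPM in Folfiri and 8.76 ± 1.09 CPM in Vehicle muscle (SD, n = 4 each).

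Transporter and synthesis genes gave no fixed ratio within a library. There were 4.91 to 12.7 reads of Slc6a8 per read of Gamt in Folfiri and 11.03 to 26.5 in Vehicle muscle, and these ranges overlapped through Folfiri 1, Vehicle 1 and Vehicle 3. The 3 genes whose pattern over the 8 libraries was most like that of Gamt, among 7679 genes with a mean of at least 10 CPM, were Stbd1, Pecr and Cbr2. Likeness was measured as the root mean square distance between log2 CPM profiles, each centred and divided by its SD, and was 0.250, 0.252 and 0.313 SD. Stbd1 encodes a glycogen-binding protein, Pecr a peroxisomal enoyl-CoA reductase and Cbr2 a carbonyl reductase. Stbd1 stood at 74.1, 75.7, 87.8 and 114.7 CPM in Folfiri 1 to 4, against 74.96, 36.3, 71.8 and 57.4 CPM in Vehicle 1 to 4. Folfiri 4 was highest and Vehicle 2 lowest, which follows from its choice by likeness to Gamt over these same libraries.

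Ak1, the cytosolic adenylate kinase of muscle (chr2:32477278-32490578), showed no separation of the groups. Its levels were 1017, 1220, 1156 and 2071 CPM in Folfiri 1 to 4, against 1342, 900 (Vehicle 2), 1780 and 1624 CPM in Vehicle 1 to 4. Folfiri 4 was the highest library and Vehicle 2 the lowest, the same pair that bounded Gamt. A 95% interval of -0.65 to 0.56 surrounded the log2 fold change of -0.05 ± 0.28 (SE, QL-adjusted p = 0.967), which was -0.32 without Folfiri 4. Reads of Ak1 per read of Ckm ran from 0.0475 to 0.103 in Folfiri and from 0.0556 to 0.0890 in Vehicle muscle.

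Ampd1, the AMP deaminase of skeletal muscle fibers (chr3:102877937-102903643), stood at 869, 1512, 1278 and 1512 CPM in Folfiri 1 to 4, against 1568, 922, 1201 and 1106 CPM in Vehicle 1 to 4. The lowest library was Folfiri 1 and the highest Vehicle 1, with the others mixed between them. For Ampd1 the log2 fold change was 0.11 ± 0.24 (SE), with a 95% interval of -0.41 to 0.62 (QL-adjusted p = 0.903). It was 0.0018 without Vehicle 2 and 0.26 without Vehicle 1.

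Ampd3, the AMP deaminase first known from erythrocytes (chr7:117911720-117955922), was far rarer than Ampd1 per kb of gene length. It had 9.98, 14.6, 17.1 and 11.9 CPM in Folfiri 1 to 4, against 9.16, 18.9, 8.37 and 10.3 CPM in Vehicle 1 to 4. Vehicle 2 was the highest of all 8 libraries, and the other 3 Vehicle libraries were below 3 of the 4 Folfiri libraries. Over all libraries the log2 fold change was 0.19 ± 0.27 (SE), its 95% interval -0.40 to 0.78 and its QL-adjusted p = 0.837. It was 0.047 without Folfiri 3, the highest Folfiri library. Without Vehicle 2 it was 0.53 (unadjusted p = 0.0382) and without Folfiri 1 and Vehicle 2 it was 0.65 (unadjusted p = 0.0104, QL-adjusted p = 0.396), both in edgeR's QL test.

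Vehicle 2 was also the library with the most erythroid marker RNA (143 CPM over the 4 distinct markers measured of 10 listed, against 17.8 to 99.3 CPM in Folfiri and 63.8 to 112 CPM in the other Vehicle libraries). Most of that sum was β-globin, and Hbb-bs and Hbb-bt, which carry the same reads as Hbb-b1 and Hbb-b2, were not counted again. Slc4a1, an erythrocyte membrane protein, was at 0.161 CPM in Vehicle 2 and at 0.868 to 3.09 CPM in Folfiri muscle. Folfiri 2 and Folfiri 3, with the lowest erythroid sums (17.8 and 33.1 CPM), held 14.6 and 17.1 CPM of Ampd3, the highest levels after Vehicle 2. The part of erythroid cells in the Ampd3 level of Vehicle 2 was not tested. Reads of Ampd3 per read of Ampd1 ran from 0.00784 to 0.0134 in Folfiri and from 0.00584 to 0.0205 in Vehicle muscle, and the Vehicle range contained that of Folfiri. Ampd2, the AMP deaminase of liver and many other tissues, averaged 6.69 ± 2.55 CPM in Folfiri and 6.30 ± 2.21 CPM in Vehicle muscle (SD, n = 4 each).

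Adssl1, the muscle adenylosuccinate synthase (chr12:113858258-113879566), had 605, 882, 1260 and 976 CPM in Folfiri 1 to 4, against 1204, 934, 1010 and 813 CPM in Vehicle 1 to 4. Folfiri libraries were both the lowest and the highest. With a log2 fold change of -0.09 ± 0.24 (SE), a 95% interval of -0.60 to 0.42 and a QL-adjusted p = 0.919, no difference was detectable at this spread. Its partner in the cycle, Adsl (adenylosuccinate lyase), averaged 176 ± 44.9 CPM in Folfiri and 188 ± 29.8 CPM in Vehicle muscle (SD, n = 4 each). Folfiri 1 was the lowest library for Ckm, Ckmt2, Ampd1 and Adssl1 alike, and also for the sums of fast fiber and of slow fiber genes.

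**Figure D3:**
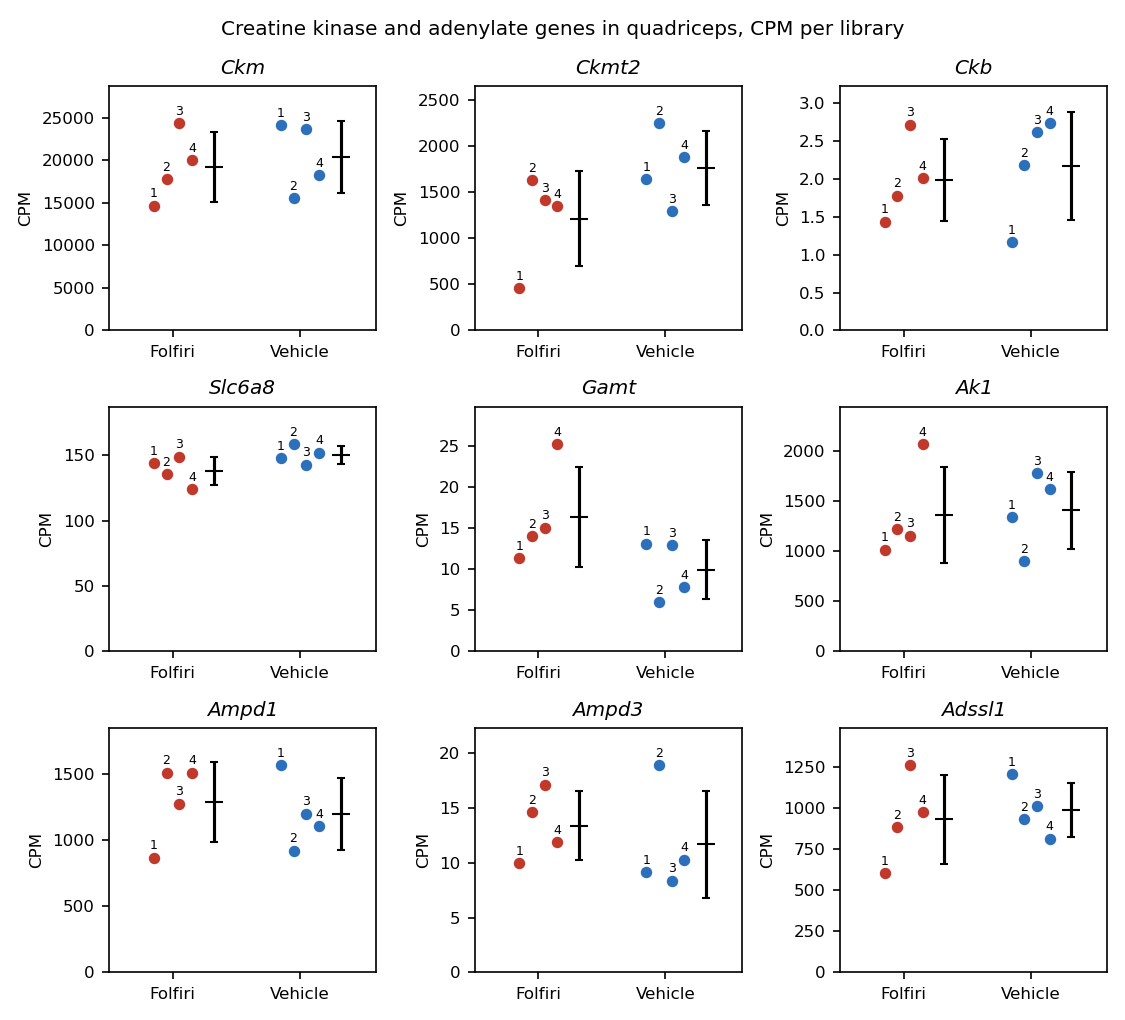
CPM of the 9 genes in each library (vertical axes, linear from 0), Folfiri in red and Vehicle in blue, numbered by replicate, with the mean and SD of each group beside its points. The groups overlap in all 9 panels, with Folfiri 1 apart at 455 CPM in Ckmt2 and Folfiri 4 apart at 25.2 CPM in Gamt.

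Per kilobase of gene length, the 9 genes spanned 4 orders of magnitude in one and the same muscle. Ckm led with 13567 ± 2881 CPM per kb in Folfiri and 14408 ± 2963 CPM per kb in Vehicle muscle (SD, n = 4 each). A middle tier followed, with Ckmt2 at 815 and 1186, Ak1 at 578 and 597, Adssl1 at 520 and 553 and Ampd1 at 552 and 512 CPM per kb (means in Folfiri and in Vehicle muscle). The transporter Slc6a8 averaged 34.7 and 37.8, Gamt 17.4 and 10.5, Ampd3 3.13 and 2.73, and Ckb 1.34 and 1.47 CPM per kb, in the same order of groups.

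The order was clear outside the middle tier and only in part within it. Ckm was above Ckmt2 in 8 of 8 libraries, Ampd1 above Slc6a8, Slc6a8 above Gamt, Gamt above Ampd3 and Ampd3 above Ckb, each in 8 of 8, and the ranges of these neighbors did not overlap in either group. Ckmt2 was above Ak1 in 7 of 8 libraries, with ranges that overlapped in Folfiri but not in Vehicle muscle. Ak1 and Adssl1 (5 of 8) and Adssl1 and Ampd1 (4 of 8) did not differ beyond their spread in either group.

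**Figure D4:**
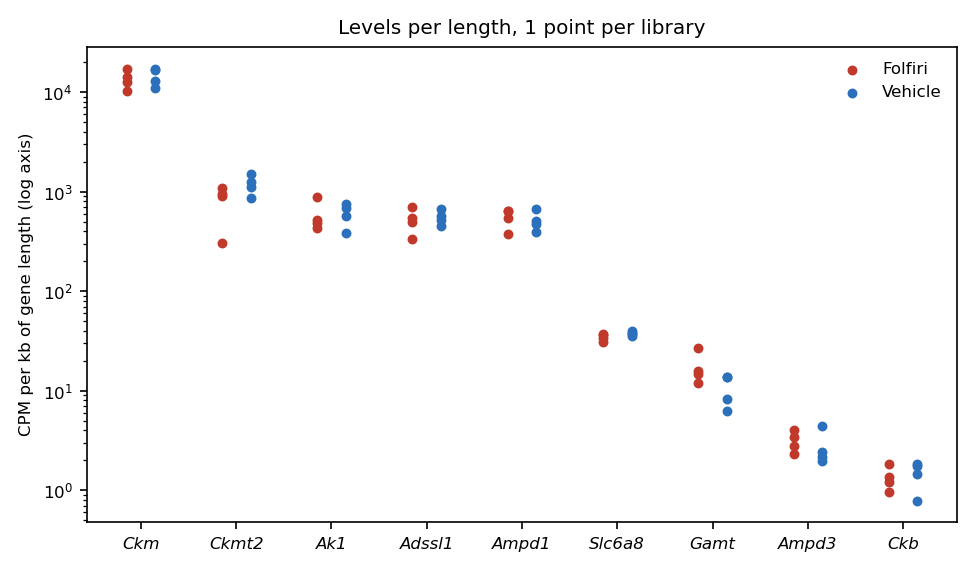
CPM per kb of gene length (vertical log axis) for the 9 genes in order of their Vehicle mean, with 1 point per library, Folfiri in red and Vehicle in blue. Ckm lies between 10346 and 17198 CPM per kb, Ckmt2, Ak1, Adssl1 and Ampd1 run into each other, and Ckb is lowest at 0.786 to 1.85 CPM per kb.

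Leaving out each library in turn moved the log2 fold changes by amounts of the order of their standard errors. Of the 9 genes, Ckmt2 (-0.72 to -0.27) and Slc6a8 were negative whichever library was left out, and Gamt (0.44 to 0.90), Ampd1 (0.0018 to 0.26) and Ampd3 (0.047 to 0.53) were positive, Ampd1 by next to nothing without Vehicle 2. Ckm (-0.23 to 0.023), Ckb (-0.34 to 0.023), Ak1 (-0.32 to 0.084) and Adssl1 (-0.27 to 0.070) took either sign. Slc6a8 was negative at -0.17 to -0.07 in these fits but stood at 0.0049 when the libraries were scaled by their read totals alone, which moved the median of all genes to 0.14.

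**Figure D5:**
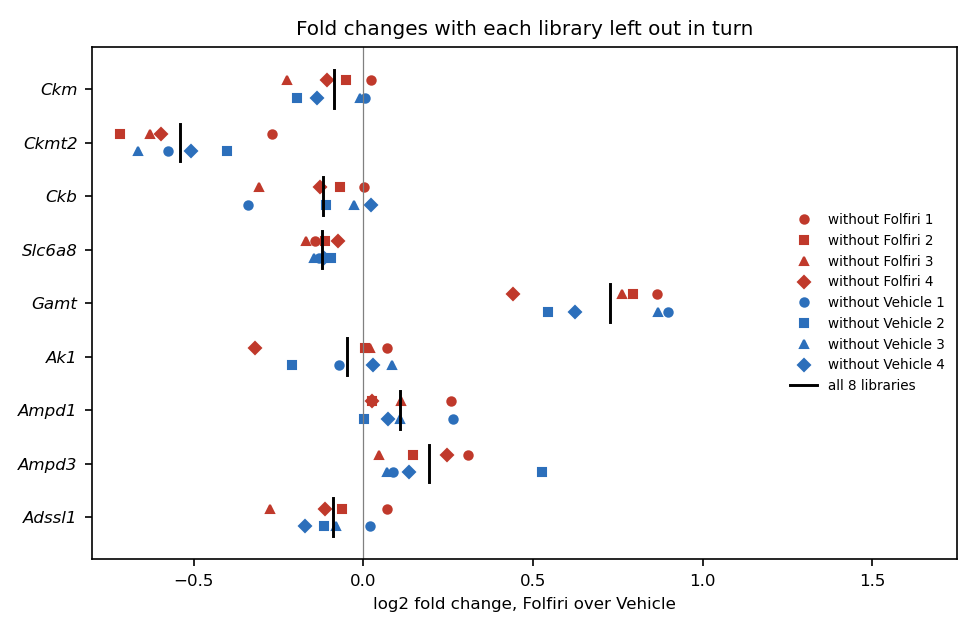
Log2 fold changes of Folfiri over Vehicle (horizontal axis) for the 9 genes, with all 8 libraries (black bars) and with each library left out (red, without a Folfiri library; blue, without a Vehicle library). Ckmt2 runs from -0.72 to -0.27 and Gamt from 0.44 to 0.90, while Ckm, Ckb, Ak1 and Adssl1 fall on both sides of 0 (Slc6a8 does so only under another scaling).

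In the QL test 0 of the other genes of the pathway lists were called, and of the pathway lists the nucleoside diphosphate kinases had the median log2 fold change furthest from 0. In the list of creatine synthesis, uptake and creatine kinases 6 of 7 genes were measured, 1 positive and 5 negative (4 and 2 with library totals or without Folfiri 1), and Ckmt1 was not analysed here. Of the 9 adenylate kinases 5 were measured, 3 positive and 2 negative (5 and 0 with library totals or without Folfiri 1), with a median log2 fold change of 0.14, and 0 passed an unadjusted p under 0.05 (1, Ak4, without Folfiri 1, without Vehicle 2 or without both). Ak4 and Ak3, adenylate kinases of the mitochondrial matrix, and Ak6, a nuclear one, had log2 fold changes of 0.35, 0.24 and 0.14, and of 0.58, 0.28 and -0.053 without Folfiri 1 and Vehicle 2. The list of the purine nucleotide cycle and AMP breakdown had 13 of 14 genes measured, 8 positive and 5 negative (11 and 2 with library totals), with a median of 0.10 and 0 at an unadjusted p under 0.05 (2, Nt5c2 and Ampd3, without Vehicle 2 or without Folfiri 1 and Vehicle 2). Its named genes were the nucleotidases Nt5c2 (0.53) and Nt5c3 (-0.19), Xdh, which forms uric acid (-0.43), and Adsl (-0.09), all as log2 fold changes. Without Vehicle 2 that of Nt5c2 was 0.90 (unadjusted p = 0.00528, QL-adjusted p = 0.405) and that of Xdh was -0.23. Without Folfiri 3 that of Xdh was -0.67 (unadjusted p = 0.0190 in the QL test, QL-adjusted p = 0.536). Without Folfiri 1 and Vehicle 2 the values were 0.98 for Nt5c2, -0.36 for Nt5c3, -0.15 for Xdh and -0.023 for Adsl. Of all genes, 571 of 12863 were higher at an unadjusted p under 0.05 in the QL test without Folfiri 1. The counts were 654 of 12850 without Vehicle 2 and 649 of 12809 without both.

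Purine salvage and guanylate genes (9 of 9 measured) were positive for 2 and negative for 7 (4 and 5 with library totals), with a median log2 fold change of -0.13 and 0 at an unadjusted p under 0.05. Adk, which rephosphorylates adenosine to AMP, averaged 109 ± 23.02 CPM in Folfiri and 127 ± 16.7 CPM in Vehicle muscle (SD, n = 4 each), and the log2 fold changes of Gmps (GMP synthetase) and Gmpr (GMP reductase) were -0.30 and -0.09, and that of Gmps was -0.097 without Folfiri 1 and Vehicle 2. The AMP-activated protein kinase, which senses the AMP that adenylate kinase leaves, had 7 of 7 subunit genes measured, 2 positive and 5 negative (4 and 3 with library totals). At an unadjusted p under 0.05 there were 0 in the QL test. Without Folfiri 1 there was 1 as lower (Prkag2), where 435 of all 12863 genes were. With library totals there was 1 as higher (Prkag3), where 1173 of all 12883 genes were. Prkag3, the γ subunit typical of fast muscle, stood at 325, 225, 253 and 334 CPM in Folfiri 1 to 4, against 207, 75.2, 238 and 226 CPM in Vehicle 1 to 4. Folfiri 1, 3 and 4 were above all Vehicle libraries and Vehicle 2 was far below the rest. This subunit had a log2 fold change of 0.61 (QL-adjusted p = 0.55), and of 0.35 without Vehicle 2 and 0.28 without Folfiri 1 and Vehicle 2. It was 0.75 without Vehicle 3 and 0.76 with library totals (unadjusted p = 0.0196 in the QL test). In DESeq2 the unadjusted p of Prkag3 was 0.0494. The log2 fold changes of Prkaa2, Prkab2 and Prkag2, which encode catalytic, β and γ subunits, were -0.04, -0.15 and -0.34, and that of Prkag2 was -0.51 without Folfiri 1.

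Nucleoside diphosphate kinases pass phosphate from ATP to the other nucleoside diphosphates. Of 7 measured genes 6 were positive and 1 negative, with a median log2 fold change of 0.47 beside 0.01 over all genes, and 6 were positive under every scaling tried. Their summed level was 135.5, 109.7, 129.0 and 118.8 CPM in Folfiri 1 to 4, against 93.7, 85.04, 90.9 and 92.9 CPM in Vehicle 1 to 4. The groups did not overlap in this sum, nor in that of 6 macrophage markers, all 6 with a positive log2 fold change, which was 87.6 to 114 CPM in Folfiri and 52.8 to 86.6 CPM in Vehicle muscle. The part of macrophages in the kinase values was not tested. At an unadjusted p under 0.05 in the QL test, 3 were higher in Folfiri (Nme2, Nme4 and Nme6), where 5.48% of all genes were, and 0 were called. Without Folfiri 1 and Vehicle 2 the list was positive for 5 and negative for 2, and its median was 0.19. In that fit 1 gene was higher at an unadjusted p under 0.05, where 649 of all 12809 genes were. Nme2 stood at 44.4, 36.0, 46.3 and 32.3 CPM in Folfiri 1 to 4, against 23.7, 23.7, 21.97 and 20.7 CPM in Vehicle 1 to 4. All Folfiri libraries were above all Vehicle libraries, as for 2.87% of all genes. Its log2 fold change was 0.82 ± 0.16 (SE, QL-adjusted p = 0.21), and 0.79 without Folfiri 1 and Vehicle 2. Other tests did call Nme2, with adjusted p = 0.00989 in the exact test of edgeR, 0.00948 in the likelihood ratio test of edgeR and 0.00393 in DESeq2. Nme6, of the same family, had a log2 fold change of 0.50 (QL-adjusted p = 0.438). Nme1, the neighbor and close relative of Nme2 on chromosome 11, had one of 0.16, and the counting could have split reads between these 2 genes, so both values are uncertain.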

How the data were processed

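Quadriceps RNA of 4 Folfiri and 4 Vehicle mice was grouped by sample title. Per the study's methods, the authors sequenced strand-specific polyA libraries as 75-base single SOLiD reads, discarded low-quality and rRNA or tRNA reads, aligned what remained to mm9 and splice junctions using bfast, and counted them per RefSeq gene in bamutils. Whether the counting used strand is not given in the sources used here, and 4 of the 9 genes overlap another annotated gene (Ckm, Ckmt2, Ampd1 and Ampd3). The deposited counts are whole reads per gene and library, unscaled. The deposited gene lengths in bases served for levels per kb. The deposited signal columns (the authors' counts divided by an effective library size), log2 fold changes, and p-values with FDR, the last ones being the authors' own edgeR comparison, were not used.

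With R 4.3.3 and edgeR 4.0.16, genes with at least 40 reads summed over 8 libraries (12883 of 12896) were scaled by TMM and tested by glmQLFit and glmQLFTest, and Benjamini-Hochberg adjustment ran over all of them with 0.05 as the limit. The scripts were tested on simulated data. The common coefficient of biological variation was 0.261 with 6 residual degrees of freedom, TMM factors ran from 0.898 to 1.17, and replicates correlated at 0.949 or more on log2 CPM. Each library is of another animal. Intervals of shares are exact Clopper-Pearson intervals. Named genes are the 9 genes, the 2 with the smallest p and the 2 most abundant others of each pathway list, and the 3 most like Gamt. Ampd2, the fiber and cell type marker genes, Nme4 and Exoc3l4 were named besides. The 9 genes, the lists and the alternatives were chosen with earlier results of these data known. Alternatives were edgeR's exact, likelihood ratio and robust tests, DESeq2 1.42.0, limma 3.58.1 voom with sample quality weights, RLE and upper quartile factors, library totals, filterByExpr, no filter, a replicate block, each library left out, and Folfiri 1 and Vehicle 2 left out together.

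Rows of a list with the same reads in every library were counted once. Further marker lists, summed in CPM, were checked as well. Endothelial markers (5 genes) held 127 to 302 in Folfiri and 249 to 381 in Vehicle libraries, smooth muscle (4) 97.5 to 192 and 167 to 224, Schwann cells (7) 50.0 to 108 and 66.6 to 172, heart muscle (3) 4.74 to 15.6 and 9.73 to 25.2, and myofiber (8) 94396 to 176016 and 104676 to 180931.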

Additional observations from a re-analysis of the deposited data

Results flagged for a closer look

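In 54 groups of 4 libraries, the 9 genes and the other named pathway genes in Folfiri and in Vehicle muscle, a single library was looked for that lay far from the others, and chance gives about 1 such group in 20. It was found once. Gmps, which makes GMP, stood at 16.5 CPM in Folfiri 1, while the other Folfiri libraries held 26.98 to 29.1 CPM and the Vehicle libraries 27.2 to 34.4 CPM. Its log2 fold change was -0.30 with all libraries and -0.15 without Folfiri 1. Among the 18 groups of the 9 genes there were 0, and Ckmt2 in Folfiri 1 did not reach the limit.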

How the results depend on the processing

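Under 20 alternatives 0 of the 9 genes were called, and with 4 animals a group their intervals leave room for the changes named beside each gene. The count of called genes over the whole table, 1, became 86 by edgeR's exact test, 101 by its likelihood ratio test, 77 by DESeq2, and 3 each by limma voom, with library totals only and with a replicate block. It was 0 without Folfiri 1 and Vehicle 2 together and 0 to 1 with single libraries left out. Replicate numbers gave correlations of deviations from the group means of 0.328, 0.163, 0.0539 and 0.241 for same-numbered libraries, of separate animals, and not every library correlated best with its own number. The numbers were therefore not taken to pair the libraries. The block changed no call of a named gene, but with it Prkag3 (unadjusted p = 0.0117) and Nt5c2 (unadjusted p = 0.0208) passed an unadjusted 0.05 in edgeR's quasi-likelihood test. In limma voom Nt5c2 (unadjusted p = 0.0142) and Ak4 (unadjusted p = 0.0282) passed it.

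The sign of some log2 fold changes was reversed, and the cause was not tested. Library totals, which moved the median of all genes to 0.139, gave log2 fold changes of 0.040 for Ckm, 0.0049 for Slc6a8, 0.070 for Ak1, 0.023 for Adssl1, 0.10 for Gatm, 0.017 for Adsl, 0.037 for Gmpr and 0.095 for Prkaa2. Voom gave 0.051 for Adssl1 and 0.044 for Gatm, and upper quartile factors 0.023 for Gatm. Without Folfiri 1 and Vehicle 2 the values were 0.014 for Ckb, 0.049 for Adssl1, 0.12 for Gatm, -0.053 for Ak6 and 0.028 for Adk. With single libraries left out, Ckm ran from -0.23 to 0.023, Ckb from -0.34 to 0.023, Ak1 from -0.32 to 0.084, Adssl1 from -0.27 to 0.070, Gatm from -0.092 to 0.057, Adsl from -0.24 to 0.056 and Prkaa2 from -0.13 to 0.091. In all, 503 of the values of named genes kept sign and side of the threshold, 34 were reversed and 3, those of Nme2 given above, passed it.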
